A study of Mus musculus with 6 samples.

Results

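The WNT ligands, their receptors, their secreted antagonists and a small set of agonist and feedback genes were examined in mouse mammary tumors after treatment with the kinase inhibitor TKI258. The 48 genes were chosen by symbol, as members of these families, from 19937 genes that had a probe set of their own on the array. All 48 were measured, as 19 ligands, 15 receptors, 9 antagonists and 5 agonist and feedback genes, each through its single-gene probe set of strongest mean signal across the 6 arrays. The tumors grew from 4T1 cells, a mouse mammary carcinoma line, after 750000 cells were placed into a mammary gland in Balb/C hosts. From day 7, 3 mice were given TKI258 by mouth at 40 mg/kg daily for 14 days, and 3 mice were given water on the same schedule. TKI258, also called dovitinib, inhibits several receptor tyrosine kinases, among them receptors for FGF, VEGF and PDGF. Each array held RNA of 1 whole tumor, so tumor cells, vessels, stroma, immune cells and adjacent tissue contributed to every value. A single cell line in a single mouse strain limits the model, and the labels give no age for the mice.

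WNT proteins are secreted, lipid-modified signals. On one route they bridge a Frizzled receptor and the co-receptor LRP5 or LRP6, which protects β-catenin from destruction and lets it act with TCF/LEF factors on target genes such as Axin2. On other routes, which do not need β-catenin, ligands such as WNT5A act through ROR1, ROR2, RYK or Frizzled receptors on cell shape and movement. Secreted frizzled-related proteins, WIF1 and FRZB bind WNT proteins, DKK1 blocks the LRP co-receptors, and R-spondins amplify the signal through LGR receptors. In the mammary gland, WNT signals take part in duct branching and in the upkeep of basal stem cells, and Wnt1 is a classic mouse mammary oncogene.

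The arrays carried a few features that bear on these genes. Values are log2 signals, in which a difference of 1 is a doubling, and the array medians lay between 6.38 and 6.44. The epithelial keratin genes Krt8 and Krt18 stood at 11.13 to 11.88 in all 6 tumors and Epcam at 6.55 to 8.03, so defining markers of an epithelial tumor were present. Means of 6 measured B cell markers were 9.26 in TKI258 replicate 3 and 7.08 in water replicate 1, against 4.91 to 5.36 in the other 4 tumors. Means of 9 keratinocyte markers were 4.99 to 5.13 in TKI258 tumors, against 7.03 and 6.70 in water replicates 2 and 3 and 5.05 in water replicate 1. The part that these cells play in the differences below was not tested. In whole tumors, fewer cells of a type and less RNA per cell cannot be told apart.

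The members that stood out were the receptor gene Ror1, the antagonist gene Sfrp4, the ligand genes Wnt10a, Wnt2 and Wnt6, and the receptor gene Fzd9. All were higher in TKI258 tumors, by 2.67-fold for Sfrp4, 1.87-fold for Ror1, 1.42-fold for Wnt2, 1.39-fold for Wnt10a, 1.22-fold for Fzd9 and 1.21-fold for Wnt6. None of them passed, since of 34760 probe sets fitted with limma 0 had an adjusted p under 0.05 (percent called 0) and 2803 had an unadjusted limma p under 0.05. These 6 were the members with an unadjusted limma p under 0.05, and no member was that far lower. They made up 12.5% of the members, against 3.79% of all genes higher and 3.35% of all genes lower at the same threshold. In 11 members (22.9%) every TKI258 tumor lay above every water tumor, and in 0 members every TKI258 tumor lay below, against 8.66% and 6.49% of all genes. Without TKI258 replicate 3 the count with unadjusted limma p under 0.05 was 10 higher, including the same 6, and 1 lower, against 3.44% and 3.38% of all genes in that setting. The members were chosen with earlier results of these data known, Ror1 among them, so these shares describe the list and are not a test of it.

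**Figure D1:**
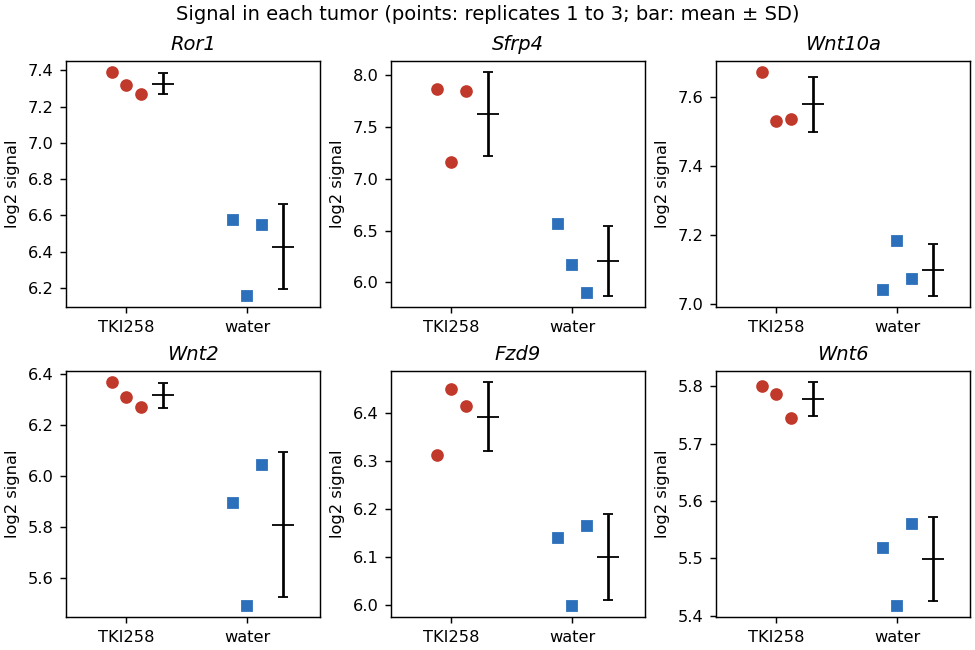
Log2 signal of Ror1, Sfrp4, Wnt10a, Wnt2, Fzd9 and Wnt6 in each tumor, with TKI258 tumors as red circles on the left and water tumors as blue squares on the right. Bars give the mean and SD of 3 tumors, the vertical axes differ between panels and do not start at 0, and in each panel all TKI258 tumors lie above all water tumors.

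Part of this upward lean was shared by dim genes in general. For 8722 genes, both group means lay below every array median, and in 13.2% of these the TKI258 tumors all exceeded the water tumors, while in 1.82% they were all lower. Among the 11215 other genes the shares were 5.11% and 10.1%. Of the members, 25 were dim in this sense, and in 7 of them (28.0%) the TKI258 tumors all exceeded the water tumors. The other 23 members included 4 such genes (17.4%), namely Ror1, Sfrp4, Wnt10a and Fzd9. Of these, Sfrp4 and Fzd9 had water means below every array median (6.21 and 6.10). They fell outside the dim set only through their TKI258 means (7.62 and 6.39), so for them the split depends on the difference itself. At an unadjusted limma p under 0.05, the higher genes were 2 of 25 dim members, against 5.39% of all dim genes, and 4 of 23 other members, against 2.55% of other genes. At that threshold 0 members of either kind were lower, against 0.94% of dim genes and 5.22% of other genes. The median log2 difference was 0.08 over the dim members and 0.08 over all dim genes, against 0.15 over the other members and -0.03 over other genes. Dim members thus had the same median difference as dim genes at large.

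**Figure D2:**
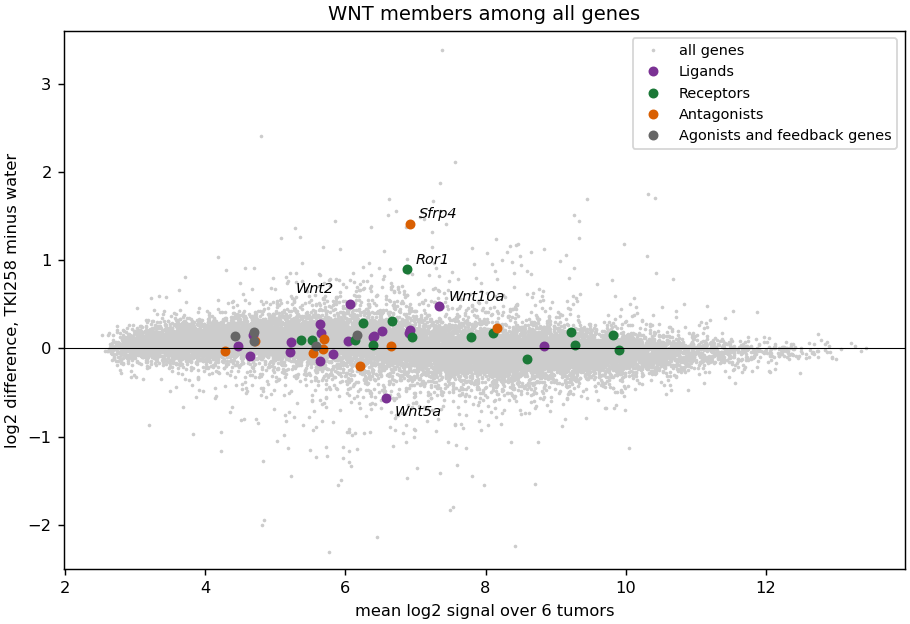
Log2 difference, TKI258 minus water, against the mean log2 signal over 6 tumors for all 19937 genes (grey) and the 48 WNT members (coloured by class). Sfrp4 (1.42), Ror1 (0.90), Wnt2 (0.51) and Wnt10a (0.48) lie above most genes of similar signal, and Wnt5a (-0.56) is the lowest member.

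Among the ligands, most differences were small. Of 19 ligand genes 14 were higher and 5 lower in TKI258 tumors, with a median log2 difference of 0.13, against 0.02 over all genes. That is 73.7% of ligands higher, against 56.6% of all genes and 76.4% of dim genes, and 11 of the 19 ligands were dim. Wnt10a, which acts in skin, tooth and fat precursor biology, had the clearest difference. Its signal was 7.67, 7.53 and 7.54 in TKI258 tumors, against 7.04, 7.18 and 7.07 in water tumors. Both groups were tight, and the gap between them was 0.35. The log2 difference was 0.48 ± 0.09 (SE), with limma adjusted p = 0.484. Wnt6, an epithelial ligand gene, lies next to Wnt10a in the mouse genome with 0 protein-coding genes between them. It had signals of 5.80, 5.79 and 5.74 in TKI258 tumors, against 5.52, 5.42 and 5.56 in water tumors. All values were dim, and the 2 groups did not overlap. The difference was 0.28 ± 0.08 (SE; limma adjusted p = 0.574).

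The other neighbouring pairs were all ligand genes too. Wnt10b and Wnt1 differed by 0.18 and 0.16, Wnt3a and Wnt9a by 0.17 and 0.21, and Wnt9b and Wnt3 by 0.14 and -0.04. In 3 of the 4 pairs both genes were higher, in a class where 73.7% of genes were higher. Whether neighbours moved together was not tested. Wnt1 itself was 4.82, 4.82 and 4.64 in TKI258 tumors, against 4.58, 4.60 and 4.62 in water tumors. These levels are far below the array medians, and the gap between groups was 0.02. For Wnt3a, a potent activator of β-catenin signaling, the values were 5.77, 5.66 and 5.76 in TKI258 tumors and 5.59, 5.48 and 5.61 in water tumors. The groups again did not overlap, at a dim level, with a gap of 0.05.

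Wnt2, a ligand gene known from stroma and from the fetal lung, had the largest upward difference of any ligand. It stood at 6.37, 6.31 and 6.27 in TKI258 tumors, against 5.89, 5.49 and 6.04 in water tumors. The TKI258 tumors were nearly equal and the water tumors spread, with water replicate 2 lowest. The log2 difference was 0.51 ± 0.15 (SE; limma adjusted p = 0.574), and it was 0.35 without water replicate 2. Wnt8b, a ligand of the developing brain, had no overlap between groups only by a hair. Its 6 values lay between 4.44 and 4.48, and its difference of 0.02 ± 0.07 (SE) turned to -0.01 after quantile normalization.

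Wnt5a ran the other way. It encodes the main ligand of the ROR receptors and was the lowest of all 48 members in log2 difference. Its signals were 6.73, 6.03 and 6.13 in TKI258 tumors, against 6.81, 6.50 and 7.27 in water tumors. The groups overlapped, since TKI258 replicate 1 lay above water replicate 2, and water replicate 3 was the highest. The difference was -0.56 ± 0.25 (SE; 95% interval -1.17 to 0.04; limma adjusted p = 0.639). Leaving out single tumors moved it between -0.78 without TKI258 replicate 1 and -0.36 without water replicate 3. Its close relative Wnt5b differed by 0.13 ± 0.15. Wnt4, which acts in mammary duct branching, was 6.52, 6.46 and 6.89 in TKI258 tumors and 6.49, 6.38 and 6.41 in water tumors. TKI258 replicate 3 was the highest, and without it the difference of 0.20 ± 0.13 (SE) was 0.07. Wnt4 was the only member with a second probe set of its own, which differed in the same direction by 0.26 ± 0.09 (SE). Its unadjusted limma p was 0.0258 and its limma adjusted p 0.594. This weaker set had no overlap, with 6.08, 5.98 and 6.18 in TKI258 tumors and 5.88, 5.84 and 5.73 in water tumors. Whether Wnt4 counts among the members that stood out therefore depends on the choice of probe set.

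Wnt7b, an epithelial ligand gene, was the ligand with the widest spread under treatment. Its signals were 9.14, 9.08 and 8.31 in TKI258 tumors, against 8.85, 8.83 and 8.78 in water tumors. TKI258 replicates 1 and 2 lay above all water tumors and TKI258 replicate 3 below them, so the difference over all tumors was 0.02 ± 0.22. Wnt9a and Wnt10b had the same order in TKI258 tumors, with replicate 3 lowest in each. The other ligands (Wnt2b, Wnt3, Wnt7a, Wnt8a, Wnt9b, Wnt11 and Wnt16) differed by -0.14 to 0.14, with overlapping groups.

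Among the receptors, Ror1 was far apart from the rest. Of 15 receptor genes 13 were higher in TKI258 tumors and 2 lower, with a median log2 difference of 0.13, and 14 of them differed by 0.31 or less. That is 86.7% of receptors higher, against 56.6% of all genes and 41.2% of genes that were not dim. Of the 15 receptors, 3 were dim. Ror1 encodes a receptor tyrosine kinase-like protein that is abundant in the embryo and scarce in most adult tissues. Its signals were 7.39, 7.32 and 7.27 in TKI258 tumors, against 6.57, 6.16 and 6.55 in water tumors. The TKI258 tumors were nearly equal, and the gap to the highest water tumor was 0.70. Group means were 7.33 ± 0.06 in TKI258 tumors and 6.43 ± 0.23 in water tumors (SD, n = 3 each). The log2 difference of 0.90 had a 95% interval of 0.59 to 1.21, an unadjusted limma p of 0.000287 and a limma adjusted p of 0.484. The exact two-sided permutation p was 0.1, the smallest that 3 against 3 tumors can give. Without water replicate 2, the lowest tumor, the difference was 0.76, and without both tumors high in B cell markers it was 1.00. Means of 8 epithelial tumor cell markers were 9.16, 8.92 and 9.22 in TKI258 tumors and 9.03, 8.33 and 8.80 in water tumors. Their order in water tumors was that of Ror1, as was that of adipocyte marker means, while the order of both lists in TKI258 tumors differed from it. The part of these or other cell types in the Ror1 difference was not tested.

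Ror2, the only paralog of Ror1, did not differ beyond its spread. It stood at 6.45, 6.35 and 6.42 in TKI258 tumors, against 6.50, 6.11 and 6.50 in water tumors. The TKI258 values lay inside the range of the water values. The difference was 0.04 ± 0.13 (SE), and its 95% interval of -0.27 to 0.34 ended below the lower bound of the Ror1 interval. Water replicate 2 was the lowest tumor for both genes. Ryk, a further WNT receptor related to tyrosine kinases, differed by -0.01 ± 0.16. Because Ror1 and Ror2 parted, the 250 bases upstream of each annotated start are shown, from RefSeq on GRCm38.p6, 5′ to 3′ on the gene's own strand. Capitals mark the motifs searched on both strands, the TCF/LEF core CTTTGA and the AP-1 motif TGANTCA, which do not overlap here.
Ror1, chr4:100095541-100095790, plus strand: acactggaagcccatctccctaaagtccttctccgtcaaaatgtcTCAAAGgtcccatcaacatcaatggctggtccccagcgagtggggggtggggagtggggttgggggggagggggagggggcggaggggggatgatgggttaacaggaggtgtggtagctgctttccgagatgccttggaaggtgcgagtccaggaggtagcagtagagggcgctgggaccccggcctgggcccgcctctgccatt
Ror2, chr13:53286125-53286374, minus strand: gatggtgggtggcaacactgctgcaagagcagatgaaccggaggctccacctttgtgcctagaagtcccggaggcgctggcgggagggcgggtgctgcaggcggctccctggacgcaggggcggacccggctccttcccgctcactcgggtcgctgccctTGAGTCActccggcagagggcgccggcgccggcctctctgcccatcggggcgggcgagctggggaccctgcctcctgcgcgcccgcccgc
The Ror1 window held 1 TCF/LEF core, in reverse orientation, starting 205 bases before the gene start, and 0 AP-1 motifs. The Ror2 window held 0 TCF/LEF cores and 1 AP-1 motif, starting 90 bases before the start. Of all 32851 promoter windows of this length, 13.8% held the TCF/LEF core and 6.75% the AP-1 motif. RefSeq windows were given for 32 of the members, and 6 of their 35 windows held the core (Dkk1, Frzb, Fzd1, Ror1, Wnt11 and Wnt5b). The windows also differed in CpG dinucleotides, with 8 in Ror1 and 24 in Ror2, against a median of 6 over all windows. These matches are descriptions of letters and not of binding.

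The Frizzled genes differed little. Of 10 Frizzled genes, 9 were higher in TKI258 tumors and Fzd7 was lower, while 56.6% of all genes were higher. Among all genes, 8.66% had every TKI258 tumor above every water tumor. Fzd9, a receptor gene with roles in bone and brain, was the one Frizzled gene without overlap. It had signals of 6.31, 6.45 and 6.41 in TKI258 tumors, against 6.14, 5.998 and 6.16 in water tumors. The difference was 0.29 ± 0.09 (SE; limma adjusted p = 0.574), and the gap between groups was 0.15. Fzd4, a receptor for the non-WNT ligand norrin in vessels, differed by 0.31 ± 0.13 (SE; limma adjusted p = 0.631). Its groups overlapped, with 6.71, 6.79 and 6.98 in TKI258 tumors and 6.72, 6.53 and 6.30 in water tumors. Fzd7, a receptor of mammary stem cells and epithelium, was 8.63, 8.55 and 8.41 in TKI258 tumors and 8.70, 8.56 and 8.69 in water tumors. Its groups overlapped, with a difference of -0.12 ± 0.10 (SE; 95% interval -0.35 to 0.11). The remaining 7 Frizzled genes differed by 0.09 to 0.17.

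The groups overlapped for both co-receptor genes. Lrp6 was 9.34, 9.44 and 9.17 in TKI258 tumors and 9.16, 9.26 and 8.97 in water tumors, a difference of 0.19 ± 0.11 (SE; 95% interval -0.08 to 0.46). Lrp5 differed by 0.04 ± 0.13 (95% interval -0.28 to 0.35). Fzd2, Fzd5, Fzd6, Fzd7, Lrp5 and Ryk, 6 of the 15 receptors, had their lowest value of all tumors in TKI258 replicate 3. Fzd6, for example, stood at 10.03, 10.06 and 9.60 in TKI258 tumors and 9.83, 9.72 and 9.69 in water tumors. TKI258 replicate 3 was the lowest tumor for 28.2% of all genes and for 16.7% of the members. Its B cell marker mean of 9.26 was the highest of the 6 tumors, and the part of those cells in these receptor values was not tested.

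**Figure D3:**
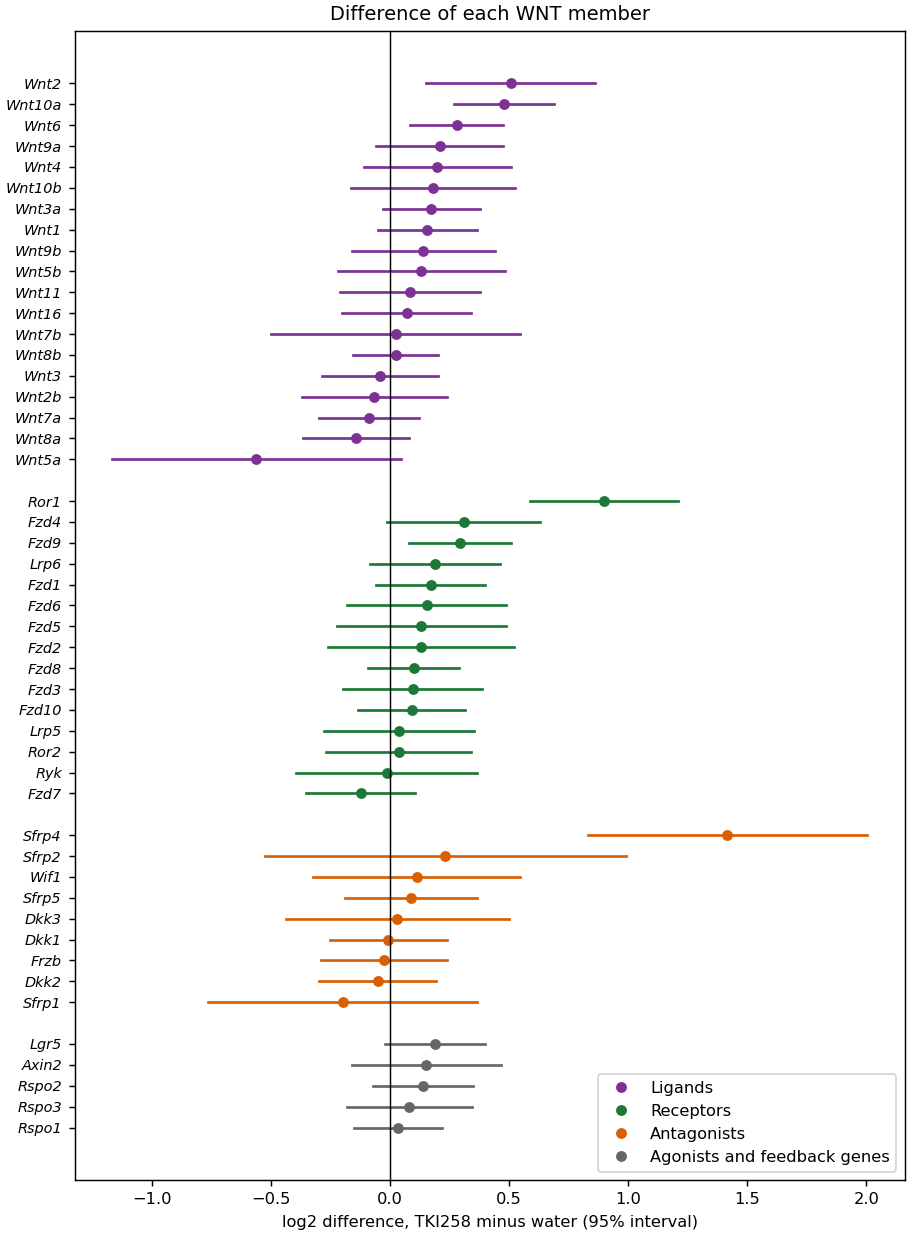
Log2 difference, TKI258 minus water, of each of the 48 members with its 95% interval from the limma fit, grouped by class and ordered by size within each class. The intervals of 6 members lie above 0 (Ror1, Sfrp4, Wnt2, Wnt10a, Wnt6 and Fzd9), before any adjustment for the number of probe sets.

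The antagonists were split, with 1 large difference among 9 genes. Sfrp4, a secreted frizzled-related protein made by connective tissue and fat, had the largest difference of all 48 members. Its signals were 7.87, 7.16 and 7.85 in TKI258 tumors, against 6.56, 6.17 and 5.89 in water tumors. The groups were separated by 0.60, and TKI258 replicate 2 was the lowest under treatment. Group means were 7.62 ± 0.40 in TKI258 tumors and 6.21 ± 0.34 in water tumors (SD, n = 3 each). The log2 difference of 1.42 had a 95% interval of 0.83 to 2.00, an unadjusted limma p of 0.000802 and a limma adjusted p of 0.484. Under the other settings run it ranged from 1.26 to 1.65. The other 8 antagonists differed by -0.20 to 0.23, and the median of the class was 0.03, against 0.13 for ligands and 0.13 for receptors. That order turned under the low-signal filter, with medians of 0.23 over 3 antagonists, 0.18 over 7 ligands and 0.14 over 10 receptors. The 3 antagonists were Sfrp4, Sfrp2 and Dkk3, and their median was the Sfrp2 value, with a 95% interval of -0.52 to 0.99. The filter used the mean over all 6 tumors. Sfrp4, with a water mean of 6.21 below every array median, passed it through its TKI258 values, so the turned order depends on the difference itself.

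Fibroblast and adipocyte markers were higher beside Sfrp4, while 6 of 8 endothelial and 5 of 7 mural cell markers were lower. Of 8 epithelial tumor cell markers 6 were higher too, 3 of them without overlap, and Krt18 was lower without overlap. Differences of list means were 0.38 for epithelial tumor cell markers and 0.37 for fibroblast markers. Among endothelial markers, Vwf was higher (0.47) and Emcn lower (-0.74), both without overlap. Of 9 fibroblast markers 8 were higher in TKI258 tumors and 3 had no overlap, with list means of 9.45, 9.32 and 9.72 in TKI258 tumors and 9.13, 8.996 and 9.25 in water tumors. Over all genes 56.6% were higher, and 8.66% had all TKI258 tumors above all water tumors (5.11% of genes that were not dim). The collagen-binding proteoglycan gene Dcn was 11.23, 10.58 and 11.39 in TKI258 tumors, against 10.09, 10.22 and 10.51 in water tumors. Its low TKI258 tumor was replicate 2, as for Sfrp4, but its order in water tumors was the reverse of that for Sfrp4. The fibroblast receptor gene Pdgfra, in contrast, differed by 0.10 ± 0.43, and the fibroblast markers Lum, Pi16 and Fap by 0.11, 0.07 and -0.02. All 9 adipocyte markers were higher and 5 had no overlap, with list means of 7.26, 7.94 and 8.73 in TKI258 tumors and 7.21, 6.14 and 6.69 in water tumors. The order of the TKI258 tumors for adipocyte markers differed from that for Sfrp4, which was as high in replicate 1 as in replicate 3. In water tumors Sfrp4 and the adipocyte list mean were both highest in replicate 1, and the fibroblast list mean was highest in replicate 3. The part of these cell types in the Sfrp4 difference was not tested.

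**Figure D4:**
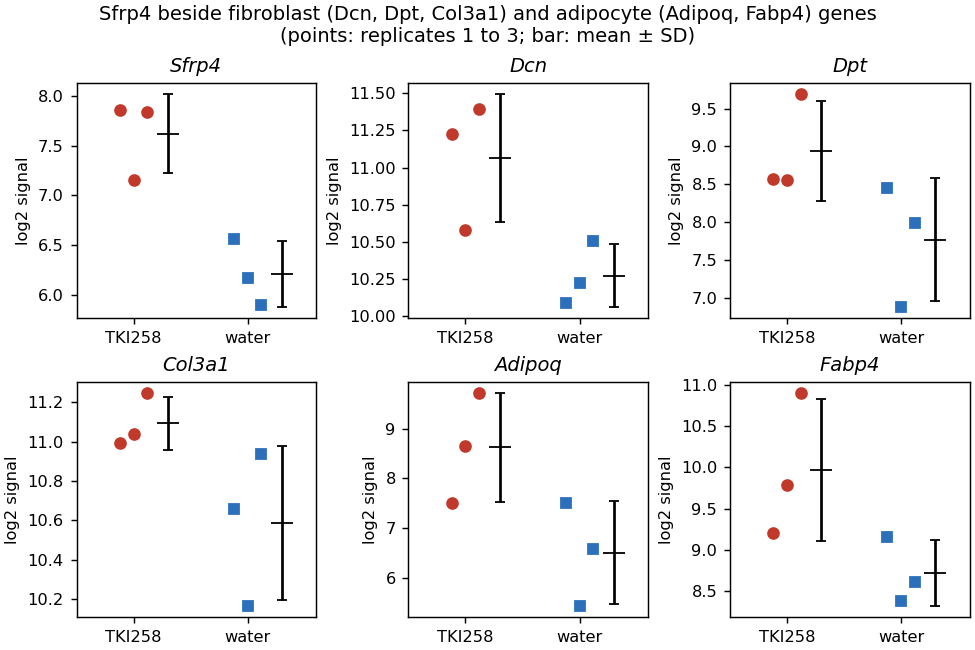
Log2 signal of Sfrp4 beside 3 fibroblast markers (Dcn, Dpt, Col3a1) and 2 adipocyte markers (Adipoq, Fabp4), with TKI258 tumors as red circles on the left and water tumors as blue squares on the right. Bars give the mean and SD of 3 tumors, and the vertical axes differ between panels and do not start at 0. The 3 fibroblast markers are those of 9 listed without overlap between groups. TKI258 replicate 2 is lowest under treatment for Sfrp4, Dcn and Dpt, and TKI258 replicate 1 for Col3a1, Adipoq and Fabp4. In water tumors Sfrp4, Dpt, Adipoq and Fabp4 are highest in replicate 1, and Dcn and Col3a1 in replicate 3.

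The other secreted frizzled-related proteins did not follow Sfrp4. Sfrp1, an antagonist often silenced in breast cancer, was 6.11, 5.63 and 6.60 in TKI258 tumors, against 6.16, 6.41 and 6.38 in water tumors. TKI258 tumors lay on both sides of the water tumors. The difference was -0.20 ± 0.24 (SE), and leaving out TKI258 replicate 3 gave -0.44, leaving out TKI258 replicate 2 gave 0.04. Sfrp2, a stromal antagonist, was 8.43, 7.84 and 8.57 in TKI258 tumors and 8.09, 7.46 and 8.60 in water tumors. Both groups ranged widely, so its difference of 0.23 ± 0.32 had a 95% interval of -0.52 to 0.99. Sfrp5, Frzb and the WNT inhibitory factor gene Wif1 differed by 0.09, -0.03 and 0.11, all at dim levels. Of the dickkopf genes, Dkk1 and Dkk2 differed by -0.01 and -0.05. Dkk3, a divergent family member, was 6.66, 6.50 and 6.82 in TKI258 tumors and 6.37, 6.46 and 7.06 in water tumors. The TKI258 values lay inside the range of the water values, and its difference of 0.03 ± 0.20 changed sign when single tumors were left out.

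Genes that amplify or report the signal had dim means in both groups. Axin2, a β-catenin target that limits the pathway, was 6.23, 6.005 and 6.49 in TKI258 tumors, against 6.11, 6.09 and 6.07 in water tumors. The water tumors were nearly equal, and TKI258 replicate 2 lay below all of them. The difference was 0.15 ± 0.13 (SE; 95% interval -0.16 to 0.47), and without TKI258 replicate 3 it was 0.03. Lgr5, an R-spondin receptor and stem cell marker, was 4.81, 4.81 and 4.74 in TKI258 tumors, against 4.68, 4.49 and 4.62 in water tumors. Its groups did not overlap, by a gap of 0.06, and its difference was 0.19 ± 0.09 (SE; limma adjusted p = 0.648). The R-spondin gene Rspo2 was 4.41, 4.46 and 4.61 in TKI258 tumors and 4.38, 4.36 and 4.32 in water tumors, a gap of 0.03. Rspo1 and Rspo3 overlapped and differed by 0.03 and 0.08.

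The members also varied between tumors in ways that crossed the groups. Water replicate 2 was the lowest of the 6 tumors for 17 members (35.4%) and the highest for 0, while for all genes it was lowest in 29.3% and highest in 18.2%. TKI258 replicates 1 and 3 were the highest tumor for 14 and 15 members (29.2% and 31.3%), against 16.5% and 26.3% of all genes. Wnt2, Ror1 and Sfrp2 were among the members lowest in water replicate 2.

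**Figure D5:**
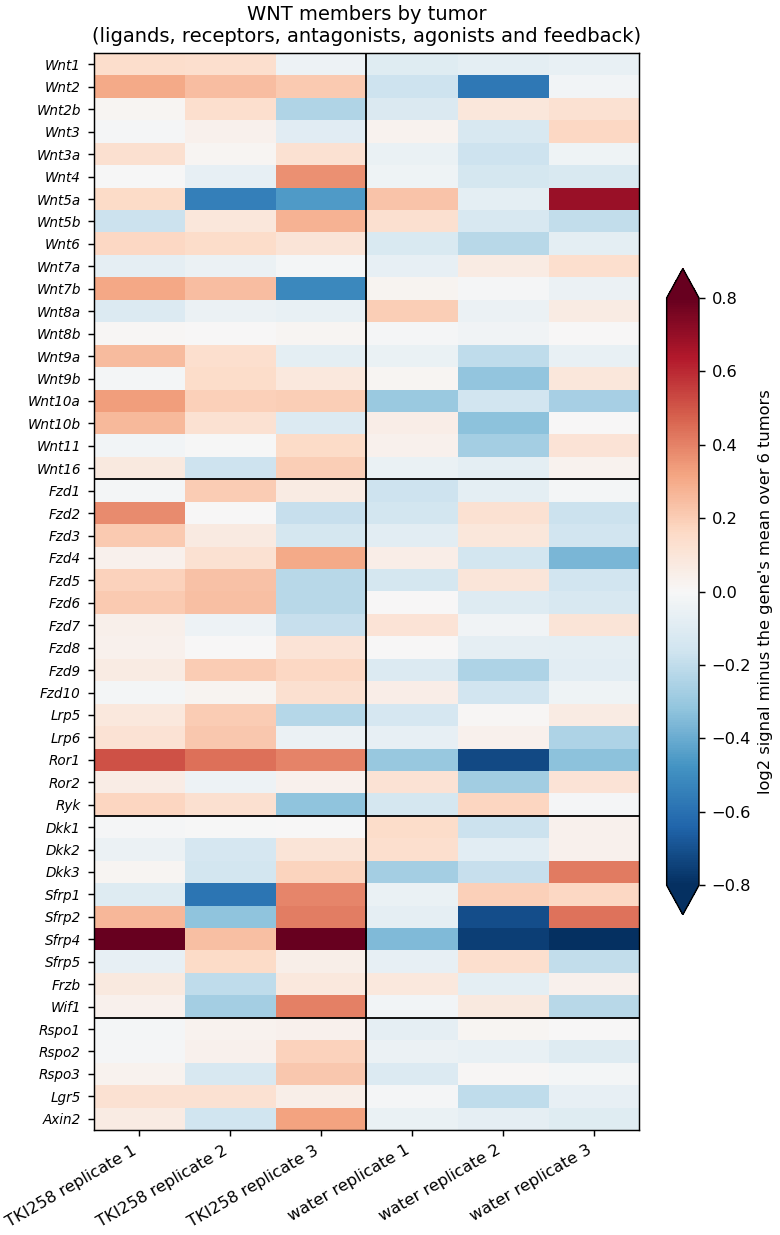
Log2 signal of each member minus its own mean over the 6 tumors, with TKI258 tumors in the left columns and water tumors in the right columns. Rows run from ligands through receptors and antagonists to agonist and feedback genes, colours saturate beyond 0.8 in either direction, Ror1 and Sfrp4 are red in all TKI258 columns and blue in all water columns, and several receptors (such as Fzd5, Fzd6 and Ryk) are blue in TKI258 replicate 3.

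Other genes of the pathway showed few differences. Of 83 genes listed, 82 had a probe set of their own and Tcf7 was not analysed here. At an unadjusted limma p under 0.05, 3 were higher and 2 lower (3.66% and 2.44%), close to the 3.79% and 3.35% of all genes, and 0 had a limma adjusted p under 0.05. In the secretion and extracellular group 16 of 20 genes were higher, with a median difference of 0.15. That is 80.0%, against 56.6% of all genes and 76.4% of dim genes. The genes of this group with an unadjusted limma p under 0.05 were Dkk4 (0.30 ± 0.08, log2 difference ± SE), an LRP inhibitor, and Kremen2 (0.28 ± 0.09), a dickkopf receptor. Larger differences, picked out after the values were seen, were those of Apcdd1 (-0.64 ± 0.28), a WNT inhibitor at the membrane, and Rnf43 (0.41 ± 0.19), a ubiquitin ligase that removes Frizzled receptors, neither of which had an unadjusted limma p under 0.05. Dkk4 was 5.73, 5.57 and 5.65 in TKI258 tumors and 5.39, 5.30 and 5.36 in water tumors, without overlap and at a dim level. The limma adjusted p was 0.572 for Dkk4 and 0.574 for Kremen2.

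Within the cell, the machinery of the β-catenin route had a median difference of 0.04 over 32 genes, none with an unadjusted limma p under 0.05 and none without overlap. Of all genes, 3.79% were higher and 3.35% lower at that threshold, and 8.66% were higher and 6.49% lower without overlap. The β-catenin gene Ctnnb1 was 11.49, 11.52 and 11.26 in TKI258 tumors and 11.43, 11.63 and 11.41 in water tumors, a difference of -0.06 ± 0.11. Lef1, a TCF/LEF factor that lymphocytes also express, was 6.99, 6.47 and 8.70 in TKI258 tumors and 6.96, 5.98 and 6.18 in water tumors. In each group its highest value was in the tumor with the highest B cell marker mean, and the part of those cells was not tested. Chosen after its values were seen, Lef1 had a difference of 1.01 ± 0.58 (limma adjusted p = 0.677). In the planar polarity branch 10 of 12 genes were higher (83.3%, against 56.6% of all genes), and Prickle1 had the one unadjusted limma p under 0.05 (0.33 ± 0.13; limma adjusted p = 0.615). It was 7.34, 6.92 and 7.03 in TKI258 tumors and 6.62, 6.86 and 6.82 in water tumors, without overlap. Without TKI258 replicate 1 the difference was 0.21, and its unadjusted limma p was under 0.05 in 6 of 15 settings. Invs (0.23 ± 0.11, SE) had no overlap either, so 2 of the 12 genes (16.7%) lay wholly above, against 8.66% of all genes.

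Of 18 genes known as WNT targets in some tissue, 9 were higher and 9 lower, with a median difference of 0.00. The lowest unadjusted p-values belonged to lower genes. Sox9 and Jun, 2 of the 18 (11.1%), had an unadjusted limma p under 0.05 and no overlap. Of all genes 3.35% were lower at that threshold and 6.49% were lower without overlap. Of genes that were not dim, as these 2 were not, the shares were 5.22% and 10.1%, so the share without overlap was close to theirs. Sox9, a transcription factor of mammary progenitors, was 8.34, 8.45 and 8.09 in TKI258 tumors, against 8.68, 8.72 and 8.74 in water tumors. All TKI258 tumors lay below the tight water group, a difference of -0.42 ± 0.11 (SE; limma adjusted p = 0.569). Jun, an AP-1 subunit gene that many signals induce, was 9.96, 10.09 and 9.66 in TKI258 tumors, against 10.17, 10.29 and 10.63 in water tumors. Its groups did not overlap either, and the difference was -0.46 ± 0.16 (SE; limma adjusted p = 0.594). Myc and Ccnd1, growth and cell cycle genes, differed by -0.07 ± 0.11 and 0.01 ± 0.10, with overlapping groups. No target gene had a limma adjusted p under 0.05.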

How the data were processed

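RNA of 6 tumors, 3 per group, was measured on Affymetrix arrays, 1 per tumor. The authors deposited 1 log2 value for each probe set and array. The tools that the submitters' processing notes list are RMA, affy and limma, without versions, order or genome build. Of 34760 probe sets, 21640 had 1 gene in the platform annotation, 1321 several and 11799 none listed. By Entrez number 21553 probe sets matched RefSeq (GRCm38.p6) and 0 symbols changed. The labels call the tumors biological replicates.

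Groups were compared with limma (limma 3.58.1, R 4.3.3; lmFit, eBayes, group as the only term, two-sided, no filter), with Benjamini-Hochberg adjustment over all probe sets at 0.05. The SE and 95% intervals are the moderated ones, and the number of arrays limits their precision. The fit was tested on simulated data with planted differences larger than those of most members, so that check does not bear on small differences. Members and lists, 10 of them cell type markers, were chosen with earlier results of these data known, so no list was tested. Of the marker lists whose means per tumor are not given with the results, differences of list means (TKI258 minus water) were -0.19 for endothelial, -0.16 for mural, -0.27 for skeletal muscle, 0.10 for Schwann and -0.77 for basal epithelium markers. Values per tumor are given for members with unadjusted limma p under 0.05 or no overlap and for 10 members fixed by name, and Fzd4, Fzd6, Sfrp2 and Wnt7b were added after their values were seen. Alternatives were quantile normalization, median centring, a low-signal filter, a replicate block, each array left out, both arrays high in B cell markers left out, trend and robust priors, array weights and averaging a gene's single-gene probe sets.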

Additional observations from a re-analysis of the deposited data

How the results depend on the processing

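No member and none of the other pathway genes had a limma adjusted p under 0.05 under any alternative run. Ror1, Wnt10a, Sfrp4, Wnt2 and Wnt6 kept their direction and an unadjusted limma p under 0.05 in every alternative that tested them (Ror1 0.76 to 1.00, Wnt10a 0.43 to 0.53, Sfrp4 1.26 to 1.65), and Fzd9 did so in all but 2 (without TKI258 replicate 2, and without TKI258 replicate 3 and water replicate 1 together). Probe sets passing were 0 to 3 with single arrays left out, 3 without water replicate 1, and 1 without that pair of arrays, the highest in B cell markers. The low-signal filter tested 20 members, with 3 higher by unadjusted p and 3 without overlap. Among genes that were not dim, a similar but not identical set, 2.55% were higher by unadjusted p and 5.11% had all TKI258 tumors above. The antagonist median was 0.23 over 3 genes, above those of ligands (0.18) and receptors (0.14). The filter used the mean over all 6 tumors, so Sfrp4 (water mean 6.21), 1 of these 3 antagonists, passed through its TKI258 values. The filter left no agonist or feedback gene, and 1 other pathway gene was higher by unadjusted p. With single arrays left out, members by unadjusted p were 5 to 10 higher (2.27% to 3.62% of all genes) and 0 to 1 lower (2.02% to 3.38%), and those without overlap were 12 to 18 higher (12.1% to 16.6% of all genes) and 0 to 5 lower (9.59% to 11.3%), since fewer tumors overlap less. The 18 came without TKI258 replicate 3 (15.8%) and the 5 without water replicate 2 (10.6%). Without that pair, members without overlap were 22 higher (24.8% of all genes) and 2 lower (16.1%), 1 member was lower by unadjusted p (3.77%), and the agonist and feedback median was 0.04. After quantile normalization 1 member without overlap was lower (5.95% of all genes), and after median centring 1 was lower (6.95% of all genes). Class medians with single arrays left out were 0.0464 to 0.16 for ligands, 0.09 to 0.19 for receptors, -0.06 to 0.07 for antagonists and 0.0277 to 0.16 for agonist and feedback genes. With array weights, medians were 0.0606 for ligands and 0.20 for receptors. Other pathway genes higher by unadjusted p were 5 after quantile normalization, 5 with the replicate block, 7 with array weights and 2 to 7 with single arrays left out; lower ones were 1 to 4. Directions turned for Wnt8b after quantile normalization (-0.0106), Ror2 with array weights (-0.0228) and without single arrays (-0.0944 to 0.10), Dkk3 with array weights (-0.0440), without the pair (-0.18) and without single arrays (-0.10 to 0.24), Sfrp1 without single arrays or the pair (-0.521 to 0.0423), Ctnnb1 with array weights (0.0165) and without single arrays (-0.11 to 0.0171), Myc without single arrays or the pair (-0.15 to 0.0375), and Ccnd1 after median centring (-0.00441) and without single arrays or the pair (-0.0718 to 0.0848). The causes were not tested. No label pairs the tumors by number. Deviations of same-numbered tumors had correlations of -0.23, 0.19 and 0.01, and those of other pairs ran from -0.28 to 0.31. With 3 tumors per group these values cannot decide whether the numbers pair tumors. The replicate block left the 6 members with unadjusted limma p under 0.05. The median of all genes moved by under 0.1 with each scaling. Dim signals limit 25 members.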
